A study of Homo sapiens with 6 samples.

Results

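The genes described here are 52 zinc finger genes, each with a ZNF symbol, that lie on the long arm of human chromosome 19 between bands 19q13.1 and 19q13.3. They were taken by symbol from a table of read counts for 56832 gene symbols, and all 52 were found in it. Their start positions in the GENCODE v29 annotation of the hg38 build split them into a pair of clusters wherever neighbouring members lay more than 2 Mb apart. The proximal cluster held 31 members, chr19:34677639-37817300, and ran from ZNF302 to ZNF573. The distal cluster held 21 members, chr19:43607219-44500524, and ran from ZNF428 to ZNF180. RNA had been sequenced from 3 libraries of HEK293T cells labelled as knocked out for SMARCA3 (KO) and from 3 libraries of wild-type HEK293T cells (WT), with no treatment in either group. HEK293T is a human embryonic kidney line transformed with adenovirus and SV40 sequences, and SMARCA3 is the protein of the gene HLTF, a helicase-like ATPase with a RING ubiquitin ligase domain. The title of the series ties SMARCA3 to ubiquitination of histone H3 and to H3K9me3, so the comparison asked here was how mRNA of these genes differed between KO and WT cells. The labels do not say how the knockout was made, whether the KO cells are 1 clone, or whether replicates were separate cultures, so the p-values cover the spread among these libraries alone, which may be technical.

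Most zinc finger genes of this arm code for KRAB zinc finger proteins, repressors that bind DNA through a row of C2H2 fingers and carry a KRAB domain near the amino end. The KRAB A-box binds the co-repressor TRIM28 (also called KAP1), which brings in the methyltransferase SETDB1, and SETDB1 places H3K9me3, the mark that HP1 proteins read. Many of these proteins bind transposable elements, and their genes spread along chromosome 19 by repeated local duplication. The bodies of KRAB zinc finger genes are themselves known to carry H3K9me3 in many cell types, brought there in part by ZNF274.

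A stretch of 39 coding bases in the A-box separates the members into classes that follow the clusters almost completely. It was found by pattern in the translated GENCODE transcripts of 46 members, and its last codon is the part of interest. The codon was TGG (tryptophan) in 29 members, 27 of them in the proximal cluster and 2, ZNF283 and ZNF404, in the distal cluster. It was a leucine codon, CTG except in ZNF226 and ZNF229, in 17 members, all of them in the distal cluster. The pattern did not match in ZNF146, ZNF260, ZNF345, ZNF781, ZNF428 or ZNF180. The stretches of 4 leucine-type members of the distal cluster are shown first and those of 4 tryptophan-type members of the proximal cluster after them, coding strand, with the last codon in capitals. All 8 genes are among those whose mRNA differed between KO and WT cells.
ZNF224: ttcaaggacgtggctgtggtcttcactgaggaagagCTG
ZNF235: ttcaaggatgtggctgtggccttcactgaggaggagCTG
ZNF226: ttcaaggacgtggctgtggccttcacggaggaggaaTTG
ZNF227: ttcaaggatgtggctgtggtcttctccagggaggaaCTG
ZNF565: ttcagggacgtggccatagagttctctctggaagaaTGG
ZNF568: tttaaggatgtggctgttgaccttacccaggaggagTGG
ZNF382: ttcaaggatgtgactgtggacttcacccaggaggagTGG
ZNF790: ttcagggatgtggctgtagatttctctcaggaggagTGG

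Promoters are shown for a pair of distal genes that were higher in KO cells, ZNF224 and ZNF235, and for 3 windows of the proximal cluster that each overlap the window of a gene read in the opposite direction. These are RefSeq windows on GRCh38.p14, from 250 bases before to 50 bases after an annotated start, 5′ to 3′ on the strand of the named gene. The ZNF568 window overlaps that of ZNF829, the ZNF382 window that of ZNF529, and the ZNF345 window shown that of ZNF790. Capitals mark matches on either strand to any of 6 motifs. The ETS motif searched was CCGGAAG. For SP1 the letters were GGGCGG. The NFY motif was CCAAT and the TATA motif TATAAA, while GCGCNTGCG stood for NRF1. A match to CTACANTTC is named a ZNF143 motif after the factor known to bind such letters.
ZNF224 promoter, chr19:44094111-44094410, plus strand: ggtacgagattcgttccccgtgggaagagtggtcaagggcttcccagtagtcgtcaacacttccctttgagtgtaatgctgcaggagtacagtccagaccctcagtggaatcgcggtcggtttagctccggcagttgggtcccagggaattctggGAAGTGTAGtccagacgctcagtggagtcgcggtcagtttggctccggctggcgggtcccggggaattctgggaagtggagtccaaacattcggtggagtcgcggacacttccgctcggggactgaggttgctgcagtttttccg
ZNF235 promoter, chr19:44304976-44305275, minus strand: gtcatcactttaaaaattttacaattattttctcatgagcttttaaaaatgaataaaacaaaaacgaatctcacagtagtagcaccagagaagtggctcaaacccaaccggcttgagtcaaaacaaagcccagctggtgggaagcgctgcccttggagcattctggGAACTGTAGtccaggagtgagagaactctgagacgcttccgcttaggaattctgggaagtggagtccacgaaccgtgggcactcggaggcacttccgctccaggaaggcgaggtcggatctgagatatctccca
ZNF568 promoter, chr19:36916082-36916381, plus strand: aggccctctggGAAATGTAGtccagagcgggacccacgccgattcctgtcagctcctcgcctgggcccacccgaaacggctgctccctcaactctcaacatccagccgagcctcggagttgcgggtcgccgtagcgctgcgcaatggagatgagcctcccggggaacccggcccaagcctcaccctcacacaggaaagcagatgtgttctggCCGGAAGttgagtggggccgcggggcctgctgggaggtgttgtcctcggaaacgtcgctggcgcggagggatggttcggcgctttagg
ZNF382 promoter, chr19:36605063-36605362, plus strand: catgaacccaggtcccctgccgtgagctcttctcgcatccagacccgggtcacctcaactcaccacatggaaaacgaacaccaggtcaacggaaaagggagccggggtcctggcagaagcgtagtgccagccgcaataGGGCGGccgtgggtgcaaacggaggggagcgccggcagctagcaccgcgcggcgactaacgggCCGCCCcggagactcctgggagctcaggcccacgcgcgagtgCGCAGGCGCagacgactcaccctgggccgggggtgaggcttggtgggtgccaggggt
ZNF345 promoter, chr19:36850626-36850925, plus strand: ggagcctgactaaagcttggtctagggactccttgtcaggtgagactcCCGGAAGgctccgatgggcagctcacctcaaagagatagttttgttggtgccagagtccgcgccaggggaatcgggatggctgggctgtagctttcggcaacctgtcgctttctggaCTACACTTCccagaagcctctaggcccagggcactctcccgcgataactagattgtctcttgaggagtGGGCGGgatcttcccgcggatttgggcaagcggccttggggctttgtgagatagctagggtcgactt

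The window table covered 45 of the 52 members, with 64 windows. The ZNF143 motif stood in 40.6% of the member windows, against 1.38% of all 35116 promoter windows. Its letters were chosen after the member promoters had been read, so its share is a description of these sequences and was not tested. The ETS motif stood in 26.6% of member windows and 10.3% of all windows, and the NRF1 motif in 18.8% and 7.47%. The SP1 motif (42.2% and 45.0%), the NFY motif (23.4% and 34.6%) and the TATA motif (3.12% and 11.5%) were not more frequent among the members. Matches of different motifs overlapped in 0 member windows. By mRNA level, the ZNF143 motif was present in 7 of the 10 members with a window that were called higher in KO cells, in 1 of the 4 called lower and in 16 of the 30 not called. The median log2 fold change was 0.16 over the 24 tested members with the motif and 0.07 over the 20 tested members with a window but without it. The motif was present in 11 of 17 distal and 13 of 28 proximal members with a window. Since the clusters differ in median log2 fold change (0.23 distal, 0.06 proximal), motif and cluster were not separated, and the difference was not tested.

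Total counts were 33125811 to 36804337 in KO libraries and 38199454 to 41593655 in WT libraries. HLTF, the targeted gene, had 141, 140 and 149 CPM (counts scaled to a library of 1000000) in KO libraries, against 215, 191 and 195 CPM in WT libraries. Its mRNA was thus lower in every KO library than in every WT library but present in all, at -0.48 ± 0.05 (SE) on the log2 scale, KO over WT (adjusted p = 4.65e-05, edgeR). An exact two-sided permutation test of HLTF gave p = 0.1, the smallest that 3 against 3 libraries allow. Of 9 genes listed as HEK293T markers, 8 were tested, 1 was called higher in KO cells (PAX2, log2 fold change 1.25) and 5 lower (NEFM, KRT18, KRT8, VIM and CDH2). Their summed level was 302 to 303 CPM in KO libraries and 428 to 454 CPM in WT libraries. NEFM was nearly absent from KO cells, with 0.0291, 0 and 0.121 CPM in KO libraries, against 37.5, 35.1 and 31.8 CPM in WT libraries (log2 fold change -9.40). Summed fibroblast markers had 6.87 to 7.76 CPM in KO libraries and 7.28 to 9.17 CPM in WT libraries, with 3 of 6 tested, 0 called (edgeR) and 1 (DCN) at 0 in every library. Summed blood and endothelial markers had 2.24 to 2.87 CPM in KO libraries and 2.07 to 2.88 CPM in WT libraries, with 1 of 7 tested, 0 called and 2 (CD3E and HBB) at 0 in every library. For both lists 0 genes passed an unadjusted p under 0.05, and 0 were called by DESeq2 or limma-voom. The part of the marker differences in the results on zinc finger genes was not tested, and in bulk RNA fewer cells of a type and less RNA per cell cannot be told apart.

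Of the 52 members, 50 passed the filter on low counts. The exceptions were ZNF781, with 3, 7 and 3 counts in KO libraries and 4, 3 and 4 in WT libraries, and ZNF229, with 0, 0 and 0 counts in KO libraries and 2, 1 and 2 in WT libraries. Among the 50, edgeR's quasi-likelihood test with Benjamini-Hochberg adjustment over all 18061 tested genes called 12 higher and 4 lower in KO cells at an adjusted p under 0.05, and 34 were not called. In total 16 of the 50 members were called, 32%, while 31.8% of all tested genes were. The share called was thus near the background, and only the balance of directions differed from it: 24% of the members were called higher and 8% lower, against 14.0% and 17.7% of all tested genes. The median log2 fold change was 0.10 over the members and 0.00 over all tested genes, and 38 of the 50 members had a value above 0. The CPM ranges of the 3 KO and 3 WT libraries were separate and higher in KO cells for 21 of the 50 members. Among all tested genes this held for 3832 of 18061 (21.2%), a smaller share. Ranges were separate and lower for 5 of the 50 members, and for 4404 of 18061 tested genes (24.4%), a larger share. The 12 higher members differed by 1.11-fold to 1.46-fold, and the 4 lower members by 1.21-fold to 3.57-fold.

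**Figure D1:**
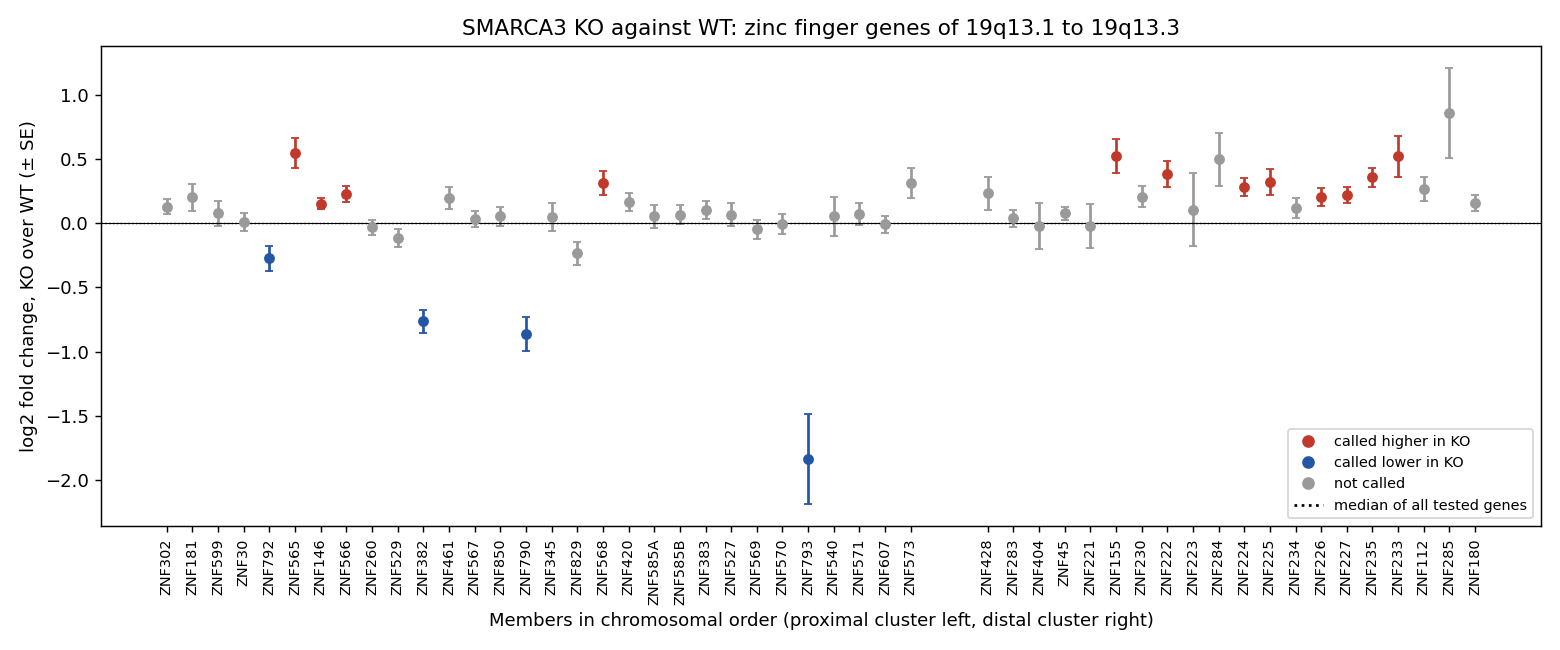
Log2 fold change, KO over WT, of the 50 tested members in the order of their start on chromosome 19, proximal cluster left and distal cluster right. Points are edgeR estimates with SE bars, colours give the call, and the dotted line is the median of all tested genes. The 8 called members of the distal cluster are all above 0, and the 8 called members of the proximal cluster split into 4 above and 4 below.

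The number of calls shifted when single libraries were left out. Without KO replicate 1, 2 or 3 the members called higher numbered 5, 6 and 6. Without WT replicate 1, 2 or 3 they numbered 16, 11 and 7, against 12 with all libraries. Whether the falls reflect the library left out or the smaller number of libraries was not tested. The 14.0% of all tested genes called higher is for the fit with all libraries. That share is not given for the smaller fits, so these counts, here and below, have no background beside them. Of the 16 called members, 6 were called under every alternative in which they were tested: ZNF565, ZNF235, ZNF224, ZNF382, ZNF790 and ZNF793. All 6 have exons that overlap those of another annotated gene. The selection of members without such overlap or shared words, given below, therefore leaves them out.

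Called members of the distal cluster all moved one way. Of its 20 tested members 8 were called higher in KO cells (40%, against 14.0% of all tested genes) and 0 lower (edgeR). The other 12 were not called, and the median log2 fold change was 0.23. For lower values in KO cells the count was also 0 at an unadjusted p under 0.05, with DESeq2 and with limma-voom. Levels summed over its 21 members were 228, 228 and 217 CPM in KO libraries and 198, 196 and 194 CPM in WT libraries, with no overlap. All 8 were of the leucine type and lay in an unbroken run of 12 members from ZNF155 to ZNF233, chosen after the values were seen, in which the median was 0.31 and all 12 values were above 0. The other 4 members of that run, ZNF230, ZNF223, ZNF284 and ZNF234, were not called. Without KO replicate 1 or 2 the members called higher in the cluster numbered 4, and without KO replicate 3 they numbered 5.

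ZNF235 (chr19:44228729-44305046, minus strand, 15 fingers) had 10.1, 10.8 and 10.2 CPM in KO libraries, against 8.17, 7.85 and 8.26 CPM in WT libraries. Every KO library lay above every WT library, and the log2 fold change was 0.36 ± 0.08 (SE, adjusted p = 0.00445, edgeR). ZNF224 (chr19:44094339-44109886, plus strand, 18 fingers) codes for a repressor first described on the promoter of the aldolase A gene. It had 16.0, 16.2 and 14.8 CPM in KO libraries, against 12.8, 13.2 and 12.6 CPM in WT libraries, again without overlap, and its log2 fold change was 0.29 ± 0.07 (SE, adjusted p = 0.00926, edgeR). Both promoters, printed above, hold 1 match to the ZNF143 motif and none to the other 5. The exons of ZNF235 overlap those of ZNF227 on the other strand over 970 bases, and those of ZNF224 overlap AC021092.1 on the other strand over 2875 bases.

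ZNF155 (chr19:43967862-43998325) had 4.11, 4.32 and 4.21 CPM in KO libraries, against 2.36, 3.16 and 3.30 CPM in WT libraries, and its log2 fold change of 0.52 was among the largest of the called distal members (adjusted p = 0.0124, edgeR). The KO libraries were close together and the WT libraries spread more widely, with WT replicate 1 the lowest. ZNF222 (chr19:44025342-44033112) had 5.71, 6.41 and 5.57 CPM in KO libraries, against 4.87, 4.29 and 4.38 CPM in WT libraries (log2 fold change 0.39, adjusted p = 0.0141, edgeR). ZNF227 (chr19:44207547-44237268) had 24.6, 22.2 and 22.5 CPM in KO libraries, against 19.2, 20.4 and 19.9 CPM in WT libraries (log2 fold change 0.22, adjusted p = 0.0243, edgeR). In both genes the groups did not overlap. ZNF233 (chr19:44259880-44275317) was the lowest of the called distal members, with 2.01, 1.71 and 1.73 CPM in KO libraries, against 1.42, 1.28 and 1.08 CPM in WT libraries (log2 fold change 0.52, adjusted p = 0.0290, edgeR). ZNF225 and ZNF226 completed the 8, with log2 fold changes of 0.33 and 0.20 and adjusted p of 0.0303 and 0.0392 (edgeR). The call was lost under 9 of 15 alternatives for ZNF226, including DESeq2, under 7 for ZNF233, and under 4 each for ZNF225 and ZNF227.

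Several distal members that were not called had values above 0 as well. ZNF284, ZNF230, ZNF112 and ZNF180 had log2 fold changes of 0.50, 0.21, 0.27 and 0.16, with separate ranges and adjusted p of 0.0879, 0.0823, 0.0540 and 0.0700 (edgeR). ZNF285 had the highest log2 fold change of the members, 0.86 ± 0.35 (SE), but its libraries overlapped, with 0.582, 0.435 and 0.848 CPM in KO libraries and 0.313, 0.488 and 0.210 CPM in WT libraries (adjusted p = 0.0863, edgeR). Between ZNF428 and the run, ZNF283, ZNF404, ZNF45 and ZNF221 were not called and had log2 fold changes of 0.04, -0.02, 0.08 and -0.02.

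By A-box class, 8 of 16 tested leucine-type members were called higher and 0 lower, with a median log2 fold change of 0.28. Those called higher are 50%, against 14.0% of all tested genes and 42.2% of the other ZNF genes of chromosome 19. Of 29 tested tryptophan-type members, 3 were called higher and 4 lower, with a median of 0.05. These are 10.3% and 13.8%, against 14.0% and 17.7% of all tested genes. Of 5 tested members without a match, 1 was called higher (20%), with a median of 0.15. Since every leucine-type member lies in the distal cluster, class and position cannot be told apart here, and the difference between the classes was not tested.

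**Figure D2:**
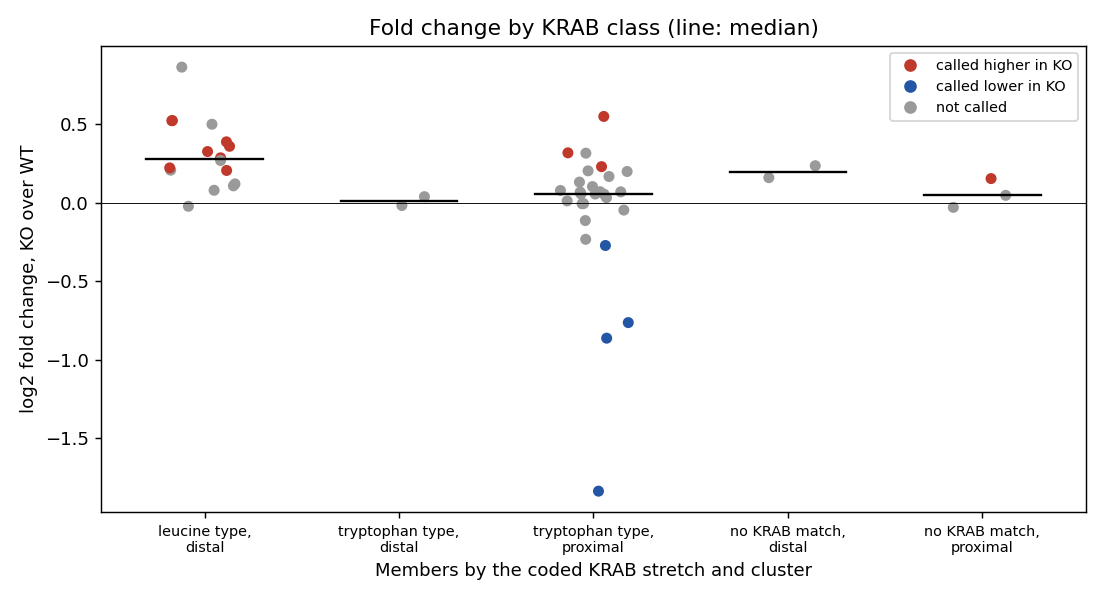
Log2 fold change, KO over WT, of each tested member, grouped by the class of its coded KRAB stretch and by cluster. Points are members, coloured by call, and the short lines are medians, 0.28 for the leucine type and 0.06 for the tryptophan type of the proximal cluster.

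Of the 30 tested members of the proximal cluster 4 were called higher and 4 lower in KO cells, 22 were not called, and the median log2 fold change was 0.06. The 8 calls are 26.7% of the members tested, against 31.8% of all tested genes, so the share called was not above the background. Its summed level was 636, 634 and 640 CPM in KO libraries and 626, 586 and 588 CPM in WT libraries. Without KO replicate 1, 2 or 3 the proximal members called higher numbered 1, 2 and 1, and without WT replicate 3 they numbered 1. ZNF565 (chr19:36182060-36246257, minus strand) was the higher member that held under every alternative in which it was tested. It had 4.28, 4.75 and 3.97 CPM in KO libraries, against 3.08, 2.77 and 3.04 CPM in WT libraries, and its log2 fold change was 0.55 ± 0.11 (SE, adjusted p = 0.00391, edgeR).

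ZNF146 (chr19:36214602-36238774), whose protein is almost wholly zinc fingers, starts 22 bases from ZNF565 on the other strand in RefSeq and was the most abundant member. It had 290, 286 and 289 CPM in KO libraries, against 275, 247 and 255 CPM in WT libraries, and its log2 fold change was 0.15 ± 0.04 (SE, adjusted p = 0.0213, edgeR). The exons of these genes overlap over 446 bases, and the strand setting of the counting is not given in the sources used here. ZNF566 (chr19:36445119-36489902) had 16.6, 16.3 and 16.3 CPM in KO libraries, against 14.2, 14.2 and 13.6 CPM in WT libraries (log2 fold change 0.23, adjusted p = 0.0186, edgeR). ZNF568 (chr19:36916329-36998700), whose mouse counterpart represses a placental promoter of Igf2, had 9.70, 8.31 and 10.1 CPM in KO libraries, against 7.76, 7.62 and 7.19 CPM in WT libraries. Its log2 fold change was 0.32 ± 0.09 (SE, adjusted p = 0.0240, edgeR), with KO replicate 2 the nearest to the WT range. In all 4 genes the KO and WT libraries did not overlap. The call was lost under 8 of 15 alternatives for ZNF566, including DESeq2, and under 6 each for ZNF146 and ZNF568.

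The 4 lower members all lay in the proximal cluster and were of the tryptophan type. ZNF382 (chr19:36604817-36634113, plus strand, 9 fingers), described elsewhere as a repressor that is often silenced in tumours, had 4.22, 4.70 and 4.21 CPM in KO libraries, against 7.59, 7.29 and 7.45 CPM in WT libraries. It had the smallest p of all members, and its log2 fold change was -0.76 ± 0.09 (SE, adjusted p = 9.46e-05, edgeR). ZNF790 (chr19:36817428-36850787, minus strand, 12 fingers) had 1.83, 2.23 and 2.51 CPM in KO libraries, against 4.12, 4.05 and 3.78 CPM in WT libraries. Its log2 fold change was -0.86 ± 0.13 (SE, adjusted p = 0.000568, edgeR), and the highest KO library was well below the lowest WT library.

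ZNF793 (chr19:37506939-37548762) was near the detection limit, with 6, 4 and 5 counts in KO libraries and 19, 17 and 26 counts in WT libraries. These correspond to 0.175, 0.109 and 0.151 CPM in KO libraries and 0.458, 0.436 and 0.682 CPM in WT libraries. The log2 fold change, -1.84 ± 0.35 (SE, adjusted p = 0.00247, edgeR), was the largest fitted difference among the members, resting on 15 and 62 counts in all. Its exons overlap those of AC022148.1 and ZNF793-AS1 on the other strand over 892 bases. ZNF792 (chr19:34956354-34964049) had 4.69, 4.75 and 5.45 CPM in KO libraries, against 6.07, 5.98 and 5.93 CPM in WT libraries. Its log2 fold change of -0.27 was just inside the threshold (adjusted p = 0.0499, edgeR) and was not called under 11 of 15 alternatives.

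**Figure D3:**
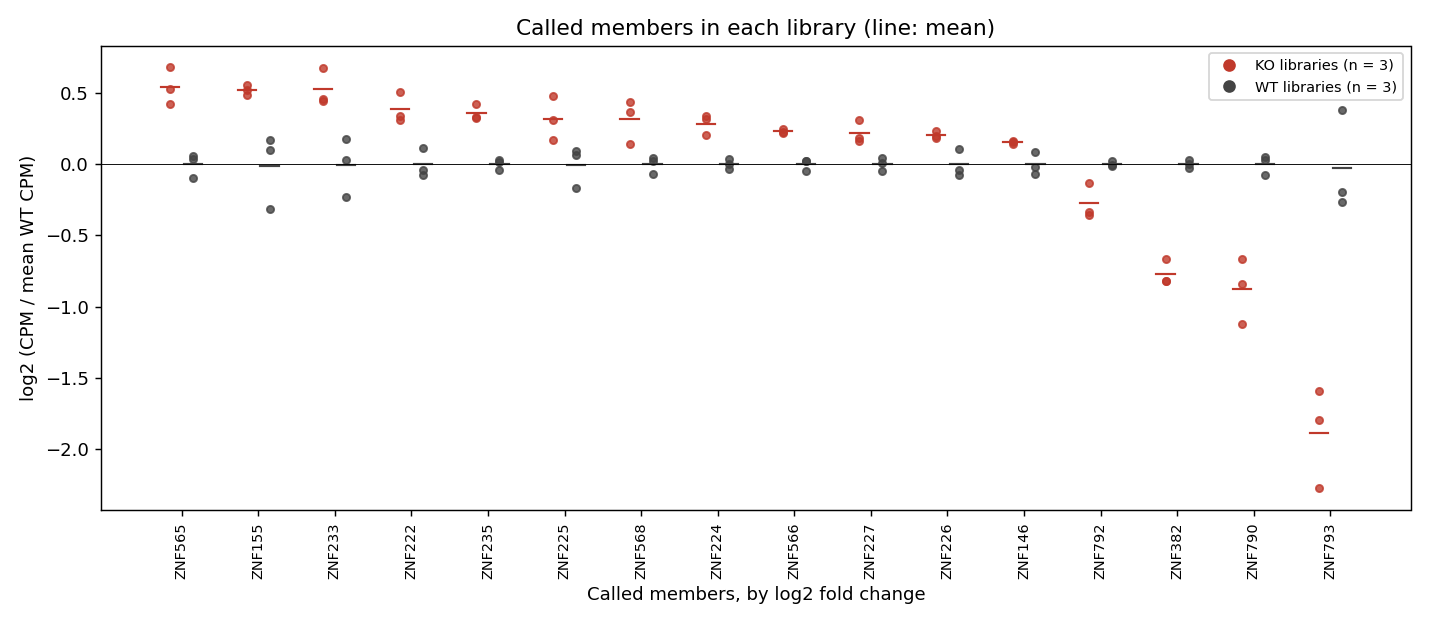
Log2 of the CPM in each library over the mean CPM of the WT libraries, for the 16 called members in order of log2 fold change. Points are libraries (3 KO, 3 WT) and short lines are group means; in each of the 16 genes the KO and WT points do not overlap, and the widest gaps are those of ZNF793, ZNF790 and ZNF382.

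Each of the 2 lower members with the smallest p faces a neighbour that was not called. Across the proximal cluster, 6 pairs of members read in opposite directions have RefSeq promoter windows that overlap by 121 to 208 bases, and the ratio of the plus-strand to the minus-strand gene was compared in each. For ZNF382 over ZNF529 the log2 ratio of CPM was -2.73 ± 0.09 in KO libraries and -2.08 ± 0.12 in WT libraries (SD, n = 3 each), while ZNF529 itself had a log2 fold change of -0.11 (adjusted p = 0.235, edgeR). For ZNF345 over ZNF790 it was 1.16 ± 0.06 in KO libraries and 0.25 ± 0.08 in WT libraries (SD, n = 3 each), while ZNF345 had a log2 fold change of 0.05 (adjusted p = 0.785, edgeR). The starts of these genes are 56 and 84 bases apart, and the windows of ZNF382 and ZNF345 printed above cover them. In both pairs the ratio in every KO library lay outside the range of the WT libraries. Since ZNF382 and ZNF790 were themselves called, with separate ranges, this largely restates those calls and is no separate evidence.

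The ZNF568 over ZNF829 ratio was 0.31 ± 0.12 in KO libraries and -0.24 ± 0.03 in WT libraries (SD, n = 3 each). Here the members lay on opposite sides of 0, ZNF568 being called higher and ZNF829 having a log2 fold change of -0.23 (adjusted p = 0.0669, edgeR). The ratio of ZNF146 over ZNF565 differed by -0.39 and that of ZNF567 over ZNF461 by -0.17 on the log2 scale (KO minus WT). For ZNF570 over ZNF569 the difference was 0.04, and the libraries overlapped (exact permutation p = 0.6). In the other 5 pairs the KO and WT libraries did not overlap, and each gave an exact two-sided permutation p of 0.1, the smallest possible with 3 against 3, or 0.12 after Benjamini-Hochberg adjustment over the 6 pairs. No pair therefore passed a threshold of 0.05, which this number of libraries cannot reach.

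**Figure D4:**
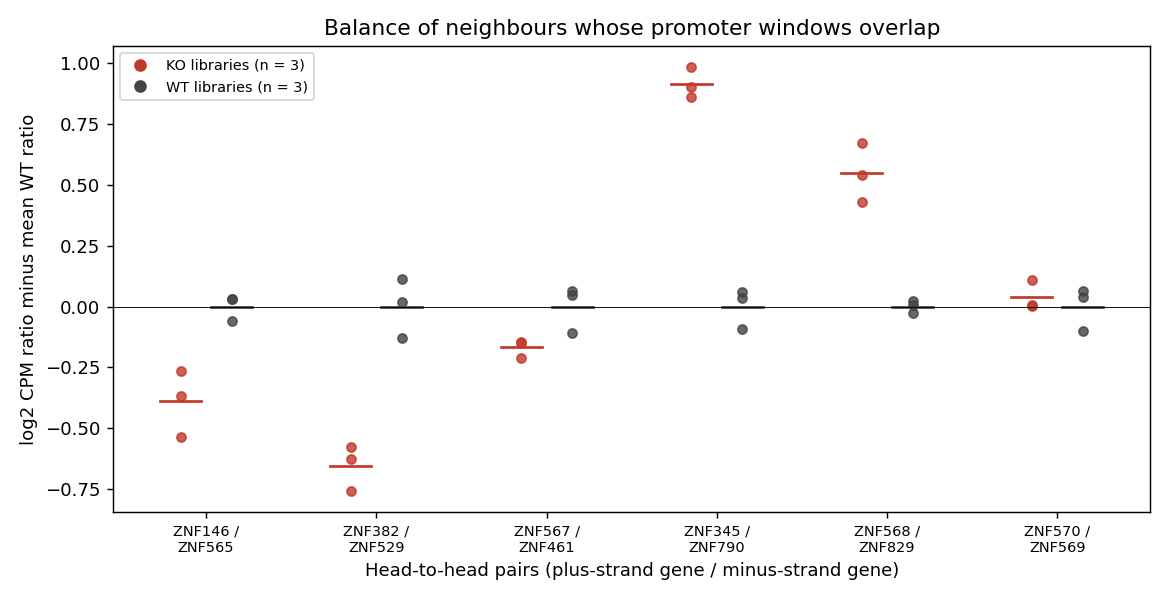
Log2 ratio of CPM of the plus-strand over the minus-strand gene in each library, minus the mean ratio of the WT libraries, for the 6 pairs with overlapping promoter windows. Points are libraries, KO left of WT in each pair, and only the ZNF570 / ZNF569 pair has overlapping KO and WT points.

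Levels among the members spread widely. CPM divided by kilobases of exon ran from 0.0121 to 69.5 in KO cells and from 0.0438 to 62.5 in WT cells, with medians of 1.61 and 1.42. ZNF146 was far above the rest, at 69.5 ± 0.454 CPM per kb in KO cells and 62.5 ± 3.46 in WT cells (SD, n = 3 each). ZNF302 followed at 9.53 ± 0.177 CPM per kb in KO cells and 8.71 ± 0.625 in WT cells, then ZNF45 at 8.60 ± 0.205 and 8.15 ± 0.233, and ZNF428 at 8.36 ± 1.06 and 7.11 ± 1.29 (SD, n = 3 each). In WT cells ZNF302, ZNF45 and ZNF428 did not differ from each other beyond their spread, while in KO cells ZNF302 stood above ZNF45. None of these 3 genes was called. In CPM, ZNF302 had 47.9, 47.1 and 48.9 in KO libraries and 47.4, 41.7 and 42.2 in WT libraries, so WT replicate 1 lay inside the KO range. ZNF45 had 38.4, 38.3 and 36.8 CPM in KO libraries and 37.0, 35.3 and 35.1 CPM in WT libraries, again with overlap. For ZNF428 the values were 17.0, 13.2 and 14.97 CPM in KO libraries and 10.8, 12.3 and 15.4 CPM in WT libraries, and here too the groups overlapped.

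Close relatives within the clusters did not always have like values. ZNF585A and ZNF585B, 94.5% identical over 769 aligned residues, had log2 fold changes of 0.05 and 0.07 and neither was called. ZNF221 and ZNF224, 81.2% identical over 589 residues, had -0.02 and 0.29, and only ZNF224 was called, a difference that was not tested. ZNF146 and ZNF260, 80.5% identical over 292 residues, had 0.15 and -0.03, and of these only ZNF146 was called. ZNF181 and ZNF302, 86.4% identical over 404 residues, had 0.20 and 0.13 and were not called. Reads can also be hard to place: in 13 members more than 10% of the 50-base words of the transcript also occur in another gene's transcripts. For ZNF585A and ZNF585B the main partner is the other gene of the pair. For others it is a gene annotated over the same exons. ZNF223 shares 61.9% of its words, mainly with AC067968.1, which overlaps it over 1513 bases on the same strand. ZNF224 shares 48.3%, mainly with AC021092.1, which overlaps it over 2875 bases on the other strand. Exons of 33 members overlap an exon of another annotated gene, 23 of them on the other strand, and 13 of the 16 called members are among the 33. Among the 12 tested members without such overlap and with less than 1% shared words, 2 were called higher (ZNF568 and ZNF226) and 1 lower (ZNF792). These are 16.7% and 8.33% of the 12, against 14.0% and 17.7% of all tested genes, so the share called higher was near the background. The selection was added after seeing the data.

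Of 23 tested genes of the machinery through which KRAB proteins act (TRIM28, SETDB1, HP1, NuRD, HUSH and related factors), 4 were called higher in KO cells, 2 lower and 17 were not called. The share called, 26.1%, was below the 31.8% of all tested genes, and the core pair TRIM28 and SETDB1 was not called. TRIM28 had 726, 625 and 637 CPM in KO libraries, against 488, 572 and 628 CPM in WT libraries. The groups overlapped, and its log2 fold change of 0.24 had an adjusted p of 0.0531 (edgeR), which was under 0.05 in 6 of 15 alternatives. SETDB1 had 74.7, 77.5 and 76.8 CPM in KO libraries, against 71.8, 71.8 and 69.9 CPM in WT libraries, with a log2 fold change of 0.10 (adjusted p = 0.101, edgeR).

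FAM208A, which codes for the HUSH complex subunit TASOR, fell to 104, 110 and 114 CPM in KO libraries, against 194, 169 and 168 CPM in WT libraries (log2 fold change -0.69 ± 0.06 SE, adjusted p = 1.09e-05, edgeR). The other lower gene was CBX5, which codes for HP1 alpha, with a log2 fold change of -0.13 (adjusted p = 0.0418, edgeR) that was not called under 11 of 15 alternatives. ZNF274, the zinc finger protein that recruits SETDB1 to zinc finger genes, had 22.9, 23.5 and 23.5 CPM in KO libraries, against 18.5, 18.1 and 19.1 CPM in WT libraries (log2 fold change 0.33, adjusted p = 0.00179, edgeR). MORC2, a HUSH-associated ATPase, had 58.5, 58.3 and 60.3 CPM in KO libraries, against 50.5, 50.3 and 48.9 CPM in WT libraries (log2 fold change 0.24, adjusted p = 0.00246, edgeR). CHD3 and CBX1 had log2 fold changes of 0.20 and 0.16 and were also called higher.

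Set beside zinc finger genes elsewhere, the members had a smaller share of calls than those on the rest of chromosome 19. There, 65 of 154 tested ZNF genes were called higher in KO cells and 8 lower, with a median log2 fold change of 0.24. The distal cluster, with 8 of 20 higher and a median of 0.23, had values like these, and the proximal cluster, with 4 of 30 and 0.06, did not. On other chromosomes 55 of 236 tested ZNF genes were higher and 24 lower, with a median of 0.09. None of these differences between groups of genes was tested. Of 40 tested genes that are no members and lie between the first and last member of a cluster, 6 were called higher and 2 lower, with a median of 0.12. These are 15% and 5% of them, against 14.0% and 17.7% of all tested genes.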

How the data were processed

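RNA was poly(A)-selected and made into stranded libraries, per the labels' protocols. The authors deposited whole-number read counts per gene symbol, not normalized, with 1 column per library, assigned here by the column names in the labels. Trim Galore, STAR 2.4, Picard, HTSeq 0.9.1, DESeq2 and hg38 are named, per the submitters' processing notes, which assign them no step; the sources used here do not give the annotation release or the strand setting. The table had 56832 symbols, 36119 with a count. A floor of 3 counts equals 0.0721 to 0.0906 CPM of unscaled totals, and floors cover counting error only. Pairs of replicates differed beyond sampling noise (chi-square over its degrees of freedom, 3.30 to 13.6), so none were merged.

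Counts were tested in edgeR 4.0.16 (R 4.3.3) with filterByExpr by group (18061 genes kept), TMM scaling (0.997 to 1.005) and the quasi-likelihood test of KO against WT without covariates, two-sided, adjusted by Benjamini-Hochberg over all tested genes, threshold 0.05. The common biological coefficient of variation was estimated at 6.12%. CPM are TMM-scaled counts over 1000000. The procedure was also run on simulated data that gave every gene the same biological variation. The outcome is not given here, so it is no check on the small differences of the members. Members and lists were chosen with earlier results of these data known. Values in every library are given for the called members with the 10 smallest p in each direction, the 4 members with the highest level per length, HLTF, TRIM28, SETDB1 and up to 2 called pathway genes per direction; ZNF285 and the promoter pairs were singled out after their values were seen.

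Positions, exon overlaps and coding sequences came from GENCODE v29, and protein features were computed from its translated coding sequences in place of RefSeq proteins. Symbols matched 77.8% of tested genes and all 52 members. Fingers were counted by pattern, identity by pairwise alignment in Biopython 1.88, and promoters were RefSeq windows (GRCh38.p14). Alternatives were RLE factors, library size only, no filter, at least 1 CPM in 3 libraries, DESeq2 1.42.0, limma-voom (limma 3.58.1), each library left out, robust dispersion, a block for the replicate number, an adjusted p threshold of 0.01 and a 1 Mb gap between clusters.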

Additional observations from a re-analysis of the deposited data

How the results depend on the processing

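No alternative reversed a called member, and HLTF was called in all 15 (adjusted p 4.38e-19 to 0.00101). Leaving out each library in turn gave 5 to 16 members called higher, 3 to 4 lower, 1 to 6 higher in the proximal and 4 to 10 in the distal cluster, and a member median of 0.10 to 0.14. At an adjusted p threshold of 0.01, 3 members were higher (1 proximal, 2 distal), 5 interleaved genes were called and 5 other chromosome 19 ZNF genes were lower. Shares of all tested genes called at 0.01 or under the other alternatives are not given, so such counts cannot be set against a background. Same-numbered libraries did not deviate together (r = -0.226, -0.0144 and -0.0547), so the numbers do not pair them. With the replicate block 11 members were called, all among the 16, 8 higher and 2 of these proximal, with a member median of 0.09. DESeq2 called 12 of the 16, without ZNF226, ZNF233, ZNF566 and ZNF792, and limma-voom called the same 16. A 1 Mb gap split off the first 5 proximal members (0 higher, 1 lower). Without exon overlap and with under 1% shared words, an alternative added after seeing the data, 2 members were higher and 1 lower. These are 16.7% and 8.33% of 12, against 14.0% and 17.7% of all tested genes. ZNF793 was not tested at a minimum of 1 CPM. The cause of these shifts was not tested. At this depth 14 tested members had a WT mean under 5 CPM, and 3 libraries a group limit an exact test to p = 0.1.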

Other observations

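A pair of genes that lie among the zinc finger genes without being members were much lower in KO cells. FXYD5, a regulator of the sodium pump, fell to 2.56, 2.44 and 2.33 CPM in KO libraries, against 9.13, 9.98 and 9.36 CPM in WT libraries (log2 fold change -1.95 ± 0.10 SE, adjusted p = 1.44e-07, edgeR). DMKN, which codes for the secreted protein dermokine, had 14.1, 15.3 and 17.5 CPM in KO libraries, against 57.3, 56.9 and 55.8 CPM in WT libraries (log2 fold change -1.86, adjusted p = 2.91e-08, edgeR). Both lie in the gap of the proximal cluster between ZNF792 and ZNF565.

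Zinc finger genes of these clusters with other names were not alike. ZFP14 had 12.1, 12.7 and 12.1 CPM in KO libraries, against 8.89, 8.60 and 7.74 CPM in WT libraries (log2 fold change 0.55, adjusted p = 0.000428, edgeR). HKR1 and ZFP30 had log2 fold changes of 0.12 and -0.08 and were not called (adjusted p = 0.237 and 0.295, edgeR). The RNA AC092296.1 had 12.2, 11.3 and 10.5 CPM in KO libraries, against 3.11, 4.36 and 3.44 CPM in WT libraries (log2 fold change 1.64, adjusted p = 3.12e-06, edgeR). It is annotated as antisense at chr19:36378028-36378832, plus strand, within the span of ZFP14 on the minus strand. The strand setting of the counting is not given, and whether reads of these genes were mixed was not tested. ARHGAP33, LRFN3, PROSER3 and SMG9 were also called higher, with log2 fold changes of 0.53, 0.56, 0.25 and 0.23.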
